A study of Mus musculus with 24 samples.

Results

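The mitochondrial genome transcripts were the 37 genes whose symbol begins with mt- in each deposited count table, of 39017 genes in the chow table and 38483 in the high-fat diet table. They comprise 13 protein genes, 2 ribosomal RNA (rRNA) genes and 22 transfer RNA (tRNA) genes, and all 37 lie on chromosome M of the GENCODE M21 annotation (GRCm38). Inguinal subcutaneous white fat of C57BL/6J mice was sequenced in 4 groups of 6 libraries. Every group carried a transgene, WT-Tg included, for γ1, the nucleotide-sensing subunit of AMPK, a kinase that responds to falling cellular energy. WT-Tg mice carried the wild-type form (AMPKg1-WT) and D316A-Tg mice the gain-of-function D316A form. The chow groups were aged 16 weeks, and the groups given a diet with 45% fat (HFD) 24 weeks, so diet, age and count table cannot be told apart. The labels name neither the promoter of the transgene nor separate animals for the libraries, so each p-value reflects how far these libraries scatter, and that scatter may be technical. Each genotype comparison asked whether the gain-of-function subunit changed the transcripts within 1 diet.

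Mammalian mitochondrial DNA is transcribed from both strands as long precursors, and the tRNAs that punctuate them are cut out to release the rRNAs and messenger RNAs. The proteins it encodes are core subunits of respiratory complexes I, III and IV and of ATP synthase, which are completed by many nuclear-encoded subunits. In fat cells this machinery supports lipid oxidation, and in brown and beige fat also heat production. The library kit prepares messenger RNA, so rRNA and tRNA counts are not a measure of how abundant these RNAs were in the tissue.

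Parts of the mitochondrial genome have near-identical copies in the nuclear genome, and 1 block of copies matches several of the 37 genes in whole or in part. Aligning the mitochondrial transcripts to the annotated nuclear transcripts found 7 pseudogenes in a block of 4663 bases, chr1:24611535-24616197 on the minus strand, that match mitochondrial genes at an identity of at least 99%. They match parts of mt-Co1 and mt-Nd4 and at least 90% of mt-Co2, mt-Atp6, mt-Co3, mt-Nd3 and mt-Nd4l, and 43 bases of mt-Atp8. Stretches of 100 bases show the contrast between a gene inside the block and one outside it. Capitals mark bases that differ between a gene and its copy, and positions are counted from 1 at the 5′ end of the mitochondrial gene. The stretch of mt-Atp6 (bases 291 to 390, chrM:8217-8316) and its copy Gm10925 (chr1:24614262-24614361, minus strand) are the same letter for letter. The stretch of mt-Nd3 (bases 1 to 100, chrM:9459-9558) differs from Gm28438 (chr1:24613020-24613119, minus strand) by the substitution T3C. The stretch of mt-Cytb (bases 522 to 621, chrM:14666-14765), from outside the block, differs at 9 bases from its closest annotated match, Gm11410 (chr4:80004510-80004609, plus strand). All sequences are from GENCODE M21.
mt-Atp6: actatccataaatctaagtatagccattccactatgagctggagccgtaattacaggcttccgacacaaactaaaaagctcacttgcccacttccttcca
Gm10925: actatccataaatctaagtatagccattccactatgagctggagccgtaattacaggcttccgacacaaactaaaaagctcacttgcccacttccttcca
mt-Nd3: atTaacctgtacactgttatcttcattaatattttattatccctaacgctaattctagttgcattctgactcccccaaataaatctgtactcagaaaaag
Gm28438: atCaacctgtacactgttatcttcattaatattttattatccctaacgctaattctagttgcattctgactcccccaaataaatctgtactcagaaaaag
mt-Cytb: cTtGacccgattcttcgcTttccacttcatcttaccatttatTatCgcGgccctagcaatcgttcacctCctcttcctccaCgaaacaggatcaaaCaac
Gm11410: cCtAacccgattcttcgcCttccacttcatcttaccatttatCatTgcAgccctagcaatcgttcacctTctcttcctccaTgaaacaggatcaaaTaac

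Genes matched over nearly their whole length had low counts per length. In WT-Tg chow libraries, the 5 genes matched over at least 90% had between 0.25 (mt-Nd4l) and 10.5 (mt-Nd3) CPM per kb, the count scaled to the library (CPM) and to kilobases of gene (mean of 6 libraries). The 7 rRNA and protein genes with no match at this identity had between 25.3 (mt-Nd6) and 10908 (mt-Cytb), and mt-Atp8, matched over 21.1%, had the least of all at 0.15. On chromosome M, mt-Atp8 lies between mt-Co2 and mt-Atp6. In the nuclear block, 233 bases between the copies of those genes, Gm28661 and Gm10925, are unannotated and were not aligned. The 21.1% may thus understate the match of mt-Atp8. mt-Co1, matched over 31.3% of its length, stood highest at 13695 ± 3803 CPM per kb (SD, n = 6), and its neighbour mt-Co2, matched over 99.6%, stood at 2.09 ± 0.61. Both encode core subunits of complex IV. On HFD the matched genes were again low, with mt-Co2 at 26.5 ± 5.80 and mt-Co1 at 13439 ± 1787 CPM per kb in WT-Tg. mt-Co2 had 27.1 counts per library on average in the chow table and 416 in the HFD table, while mt-Co1 had 471686 and 462801. Gm13340, a pseudogene on chromosome 2 that matches the whole of mt-Co1 at 97.6% identity, shifted between the tables in the same direction, with a mean of 40.6 counts on chow and 460 on HFD. How reads that match several places were counted is not given in the sources used here, so the levels of mt-Co2, mt-Atp8, mt-Atp6, mt-Co3, mt-Nd3 and mt-Nd4l are uncertain, and the part of the copies in them was not tested. Of the 7 pseudogenes in the block, only Gm10222 was present in the count tables, with a mean of 3.67 counts on chow and 91.8 on HFD. The others were not found in either table by their GENCODE M21 identifiers, so no counts exist for them here.

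**Figure D1:**
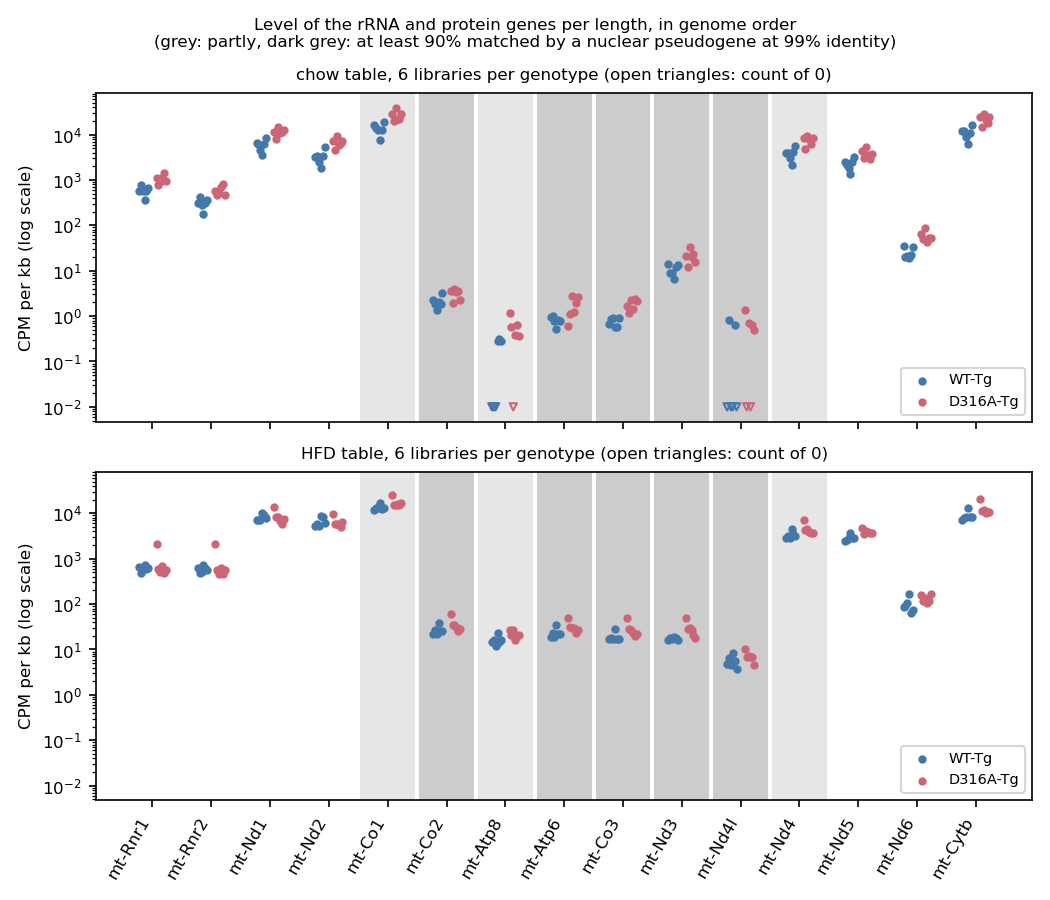
Level of the 2 rRNA and 13 protein genes in CPM per kb (log axis), in genome order, with 1 point per library and 6 libraries per genotype in the chow table (top) and the HFD table (bottom). The genes shaded dark grey, matched over at least 90% by a nuclear pseudogene, lie orders of magnitude below mt-Co1 and mt-Cytb, and mt-Atp8 and mt-Nd4l had counts of 0 in some chow libraries (open triangles).

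Leaving aside these 6 low genes, the order per length in WT-Tg on chow was mt-Co1, mt-Cytb, mt-Nd1, mt-Nd4, mt-Nd2, mt-Nd5, mt-Rnr1, mt-Rnr2 and mt-Nd6. Neighbours in this order differed by less than their spread over libraries in several cases: mt-Co1 (13695 ± 3803 CPM per kb) and mt-Cytb (10908 ± 3343), mt-Nd4 (3829 ± 1160) and mt-Nd2 (3269 ± 1222), and mt-Nd2 and mt-Nd5 (2270 ± 626). mt-Nd6, the only protein gene on the light strand, was at 25.3 ± 6.81, far below mt-Nd5, which it overlaps by 14 bases on the opposite strand. The 14 shared bases (chrM:13552-13565, shown on the plus strand, as both genes count them) cannot be assigned to either gene where strand was not used.
mt-Nd5/mt-Nd6: ttaatctcgagtaa

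Library totals ran from 13254536 to 22748132 counts. In the replicate pairs nearest to each other, squared differences in counts were still at least 14.4 times those of sampling noise (chi-square per degree of freedom). No library was thus a copy of another. The 12 mature adipocyte markers, Adipoq and Plin1 among them, were above 0 in every library, with a mean log2 CPM of 9.74 to 11.6, as the tissue label says. Markers of other cell types differed widely within groups. The 10 B lymphocyte markers had a mean log2 CPM above 4 in WT-Tg 1 to 4 and D316A-Tg 8 and 11 on chow, and in WT-Tg 3 and D316A-Tg 7, 8, 9 and 11 on HFD. The 20 skeletal muscle markers summed to between 42.1 and 11631 CPM in WT-Tg libraries and between 50.3 and 658 CPM in D316A-Tg libraries on chow, and on HFD to between 47.0 and 249 CPM and between 269 and 21564 CPM, with at most 3 of them at 0 in any library. In bulk tissue, fewer cells of a type and less RNA per cell cannot be told apart.

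On chow, the mitochondrial genome supplied a larger share of all counts in D316A-Tg fat. In WT-Tg libraries 1 to 6 the 37 genes took 6.79%, 6.30%, 5.29%, 3.77%, 5.40% and 7.36% of the library total. In D316A-Tg libraries 7 to 12 they took 9.41%, 8.36%, 11.5%, 7.68%, 9.43% and 9.22%. Every D316A-Tg library lay above every WT-Tg library. The means were 5.82% ± 1.28 and 9.26% ± 1.29 (SD, n = 6), a difference of 3.45 percentage points and a ratio of 1.59. Because the groups do not overlap, any split of them keeps this order. The ranges by level of the B lymphocyte markers therefore only describe the libraries. Among libraries above 4, the 4 WT-Tg libraries ran from 3.77% to 6.79% and the 2 D316A-Tg libraries from 8.36% to 9.43%. Among the others, the 2 WT-Tg libraries ran from 5.40% to 7.36% and the 4 D316A-Tg libraries from 7.68% to 11.5%.

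On HFD the difference was smaller, and 1 library stood far above the rest. WT-Tg libraries 1 to 6 had 5.05%, 5.11%, 5.52%, 6.96%, 5.69% and 5.42% of their counts on the 37 genes, and D316A-Tg libraries 7 to 12 had 10.9%, 7.08%, 6.54%, 6.25%, 6.41% and 6.16%. WT-Tg 4 was above 5.69% and reached into the D316A-Tg range, and D316A-Tg 7 stood apart from the rest of its group. The means were 5.63% ± 0.70 and 7.23% ± 1.84 (SD, n = 6), a difference of 1.60 percentage points that was 0.86 without D316A-Tg 7. Without the 5 libraries rich in B lymphocyte markers it was 0.56, between 5 WT-Tg libraries from 5.05% to 6.96% and 2 D316A-Tg libraries from 6.16% to 6.25%. That library also had the highest skeletal muscle marker score of all 24 (mean log2 CPM 6.87) and the highest brown and beige marker score (6.93), and the part of these cells in its mitochondrial total was not tested.

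**Figure D2:**
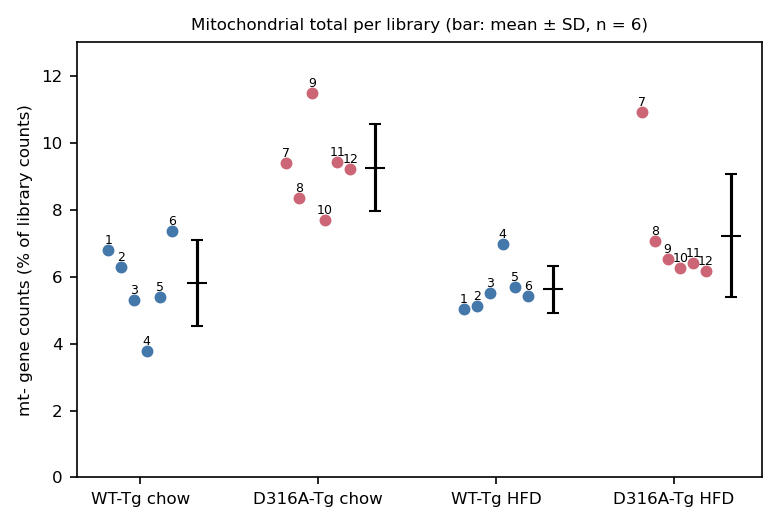
Share of all library counts on the 37 mitochondrial genes (percent), with 1 numbered point per library in the 4 groups and the mean ± SD beside them (n = 6). The D316A-Tg chow libraries sit between 7.68% and 11.5%, all above the WT-Tg chow libraries, and D316A-Tg HFD 7 sits alone at 10.9%.

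Of the 37 genes, 18 passed the filter on low counts in the chow table, 6 had a count of 0 in all 12 libraries and the rest were too low. Of the 18 tested, 11 were called higher in D316A-Tg and 0 lower (edgeR's quasi-likelihood test, adjusted p below 0.05 over all genes), against 5.3% of all 15249 genes called higher, 3.25% called lower and 8.54% called in either direction. Each of the 18 had a fold change above 0. Their median log2 fold change was 0.98, against -0.07 over all genes tested. In 5 of them, mt-Rnr2, mt-Tl1, mt-Co1, mt-Co3 and mt-Nd6, every D316A-Tg library lay above every WT-Tg library, an order seen in 2.26% of all genes, and in 0 of the 18 was the order the reverse, seen in 1.81%. Scaling by library totals alone lowered the median of all genes to -0.36 and that of the 18 to 0.69, so that their distance from all genes was 1.05 in place of 1.06. With that scaling 7 members were called, and 23.5% of all calls were in the higher direction in place of 62%.

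The count of 11 depended on the libraries. Leaving out WT-Tg 1, 2, 3, 4 or 5, or D316A-Tg 7, 9, 10, 11 or 12, left between 1 and 7 calls. Between 0.901% (without D316A-Tg 7) and 9.16% (without D316A-Tg 11) of all genes were called in those fits. Without WT-Tg 6 and without D316A-Tg 8, 11 and 14 calls were made, against 12.2% and 21.9% of all genes. All 18 fold changes stayed above 0 in each of these 12 fits. mt-Nd6 lost its call in 0 of the 12, mt-Co3 in 3, mt-Rnr2 in 8, mt-Ti in 11 and the other 7 in 9 or 10. Without the 6 libraries rich in B lymphocyte markers, 5 members were called, against 15.3% of all genes, and the median log2 fold change of the 18 tested was 0.84. With the B lymphocyte score as a covariate 14 were called, against 24.3% of all genes, with a median of 0.82 over the 18 tested. DESeq2 called 15, against 19.5% of all genes, and limma's voom 16, against 71%. With the skeletal muscle score as a covariate 0 of the 18 were called, among 0.485% of all genes, and their median log2 fold change was 0.94.

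The 2 rRNAs, which form the core of the mitochondrial ribosome, were both called higher on chow. mt-Rnr1, the small-subunit rRNA (ENSMUSG00000064337, chrM:70-1024), ran from 340 through a median of 558 to 760 CPM (WT-Tg) and from 736 through 975 to 1378 CPM in D316A-Tg. WT-Tg 2 alone reached into the D316A-Tg range. The log2 fold change (log2FC) was 0.82 (SE 0.21, adjusted p = 0.0367). mt-Rnr2, the large-subunit rRNA (ENSMUSG00000064339, chrM:1094-2675), ran from 285 through 487 to 665 CPM and from 724 through 859 to 1328 CPM, with no overlap, and differed by 0.92 on the log2 scale (SE 0.22, adjusted p = 0.0318).

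Complex I takes electrons from NADH, and 7 of its core subunits are encoded in mitochondrial DNA. On chow, 5 of the 6 tested were called higher. mt-Nd1 (ENSMUSG00000064341, chrM:2751-3707) ran from 3368 through a median of 6063 to 8098 CPM (WT-Tg) and from 7876 through 10794 to 14279 CPM in D316A-Tg (log2FC 0.94, SE 0.24, adjusted p = 0.0371). mt-Nd2 (ENSMUSG00000064345, chrM:3914-4951) ran from 1909 through 3367 to 5666 CPM and from 4828 through 7123 to 9620 CPM (1.05, SE 0.27, adjusted p = 0.0374). In both genes the highest WT-Tg library, WT-Tg 6, was the only one to reach into the D316A-Tg range. mt-Nd4 (ENSMUSG00000064363, chrM:10167-11544), a proton-pumping membrane subunit, had medians of 5507 and 11342 CPM, with WT-Tg up to 7790 and D316A-Tg down to 6700 (0.98, SE 0.26, adjusted p = 0.0405). mt-Nd6 (ENSMUSG00000064368, chrM:13552-14070, minus strand) had the lowest adjusted p of the 18, running from 9.94 through 11.5 to 18.1 CPM (WT-Tg) and from 22.7 through 27.2 to 44.5 CPM in D316A-Tg (1.19, SE 0.21, adjusted p = 0.0138). Its groups did not overlap. mt-Nd5 (ENSMUSG00000064367, chrM:11742-13565) had medians of 4220 and 6568 CPM and missed the threshold (0.75, SE 0.24, adjusted p = 0.0687). mt-Nd3 (ENSMUSG00000064360, chrM:9459-9806), shown above with its nuclear copy, rose from a median of 3.60 to 7.22 CPM (0.99, SE 0.27, adjusted p = 0.0463), on 82.1 counts per library. mt-Nd4l (ENSMUSG00000065947, chrM:9877-10173) was too low to test, with 0 to 4 counts in each WT-Tg library and 0 to 5 in each D316A-Tg library.

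mt-Cytb, the only mitochondrially encoded subunit of complex III, which passes electrons to cytochrome c (ENSMUSG00000064370, chrM:14145-15288), ran on chow from 7087 through a median of 12930 to 18416 CPM (WT-Tg) and from 17030 through 25576 to 32052 CPM in D316A-Tg. WT-Tg 6 alone overlapped the D316A-Tg range. The log2FC was 0.98 (SE 0.27, adjusted p = 0.0443). Of the 3 subunits of complex IV, the oxidase that reduces oxygen, mt-Co1 (ENSMUSG00000064351, chrM:5328-6872) ran from 12086 through 20553 to 29264 CPM and from 31202 through 39883 to 60380 CPM, without overlap (0.97, SE 0.27, adjusted p = 0.0486). mt-Co3 (ENSMUSG00000064358, chrM:8607-9390) ran from 0.44 to 0.73 CPM (WT-Tg) and from 0.94 to 1.87 CPM in D316A-Tg, also without overlap (1.28, SE 0.25, adjusted p = 0.0189), on 15.4 counts per library and with a nuclear copy over 99.9% of its length. mt-Co2 (ENSMUSG00000064354, chrM:7013-7696) had medians of 1.33 and 2.37 CPM and did not pass (0.57, SE 0.26, adjusted p = 0.162).

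The ATP synthase subunits could barely be measured on chow. mt-Atp6 (ENSMUSG00000064357, chrM:7927-8607), part of the proton channel, ran from 0.35 to 0.68 CPM (WT-Tg) and from 0.41 to 1.94 CPM in D316A-Tg (log2FC 1.08, SE 0.37, adjusted p = 0.0794). mt-Atp8 (ENSMUSG00000064356, chrM:7766-7969) had at most 1 count in any WT-Tg and 3 in any D316A-Tg library and was not tested. The 2 genes are read from 1 messenger RNA, and mt-Atp6 begins inside mt-Atp8. They share 43 bases (chrM:7927-7969, plus strand), in which the capitals mark the start codon of mt-Atp6, and these are also the bases of mt-Atp8 that Gm10925 matches.
mt-Atp8/mt-Atp6: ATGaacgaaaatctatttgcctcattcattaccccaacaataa

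Of the 22 tRNAs, 5 were tested on chow, and together the 22 made up 0.0196% of the mitochondrial counts. Free tRNAs are short and lack the poly(A) tail by which messenger RNA is usually caught. mt-Ti, the isoleucine tRNA (ENSMUSG00000064342, chrM:3706-3774), was called higher, from 0.13 to 0.79 CPM (WT-Tg) and from 0.74 to 2.51 CPM in D316A-Tg (log2FC 1.69, SE 0.48, adjusted p = 0.04995). It rested on 14.2 counts per library and overlaps mt-Nd1 and mt-Tq by 5 bases in all. mt-Tl1, a leucine tRNA (ENSMUSG00000064340, chrM:2676-2750), ran from 0.62 to 1.65 CPM and from 1.71 to 3.00 CPM, without overlap, and missed the threshold (0.99, SE 0.29, adjusted p = 0.0518). mt-Tw, the tryptophan tRNA (1.64, adjusted p = 0.0574), mt-Tm, the methionine tRNA (0.63, adjusted p = 0.121), and mt-Tt, the threonine tRNA (0.52, adjusted p = 0.231), did not pass. The sequences of mt-Ti, the tRNA called on chow, and of mt-Tl1, whose genotype effect differed between the diets, are shown on the plus strand.
mt-Ti: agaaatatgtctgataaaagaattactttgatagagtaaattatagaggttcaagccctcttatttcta
mt-Tl1: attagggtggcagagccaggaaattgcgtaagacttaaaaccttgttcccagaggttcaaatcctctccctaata

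On HFD, 20 of the 37 genes were tested and 5 had a count of 0 in all 12 libraries. Of the 20, 2 were called higher in D316A-Tg, mt-Nd3 and mt-Nd5, and 0 lower, against 4.51% of all 14649 genes called higher, 3.96% called lower and 8.47% called in either direction. Fold changes were above 0 in 17 of the 20, with a median log2 fold change of 0.45 against 0.01 over all genes tested. Without D316A-Tg 7 the median was 0.24 and 12 of 20 were above 0. With the skeletal muscle score as a covariate the median was -0.12 and 9 of 20 were above 0. On HFD that score ran from -0.38 to 2.29 in WT-Tg and from 2.29 to 6.87 in D316A-Tg. It nearly followed genotype, so this fit can hardly separate score from genotype. Without the 5 libraries rich in B lymphocyte markers the median was 0.15, over 21 tested. In 0 of the 20 did the genotypes separate without overlap, seen in 1.43% of all genes with D316A-Tg above and in 2% with D316A-Tg below. The unadjusted p was below 0.05 in 9 of the 20. DESeq2 called 4 of the 20 and limma's voom 6, of which 5 higher, near the 19.1% and 29.7% of all genes that these tools called, and 0 were called when all 24 libraries were fitted together, against 5.49%.

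mt-Nd5 ran from 4442 through a median of 5206 to 6892 CPM in WT-Tg on HFD and from 6556 through 7012 to 8720 CPM in D316A-Tg. Only WT-Tg 4 reached above the lowest D316A-Tg library. The log2FC was 0.47 (SE 0.13, adjusted p = 0.0463). mt-Nd3 ran from 5.54 through 6.12 to 6.55 CPM and from 6.26 through 9.55 to 17.5 CPM (0.75, SE 0.21, adjusted p = 0.0488), and D316A-Tg 12 was the library within the WT-Tg range. Neither call was made when any of WT-Tg 1, 2, 3, 5 or 6 or D316A-Tg 7, 8, 9, 10 or 11 was left out. In those fits between 2.19% (without WT-Tg 6) and 12.1% (without WT-Tg 3) of all genes were called. Nor were they made with the skeletal muscle score or the B lymphocyte score as a covariate, where 0% and 0.177% of all genes were called, or without the 5 libraries rich in B lymphocyte markers, where 0% were. Without those 5 libraries the log2 fold change was 0.42 for mt-Nd5 and 0.39 for mt-Nd3. That of mt-Nd3 turned to -0.18 with the skeletal muscle score, which nearly followed genotype on HFD.

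The other abundant transcripts were higher in most D316A-Tg libraries on HFD without passing the test. mt-Co1 ran from 18294 through 20217 to 26090 CPM (WT-Tg) and from 23411 through 24225 to 38444 CPM in D316A-Tg, where only WT-Tg 4 overlapped (log2FC 0.38, SE 0.16, adjusted p = 0.143). mt-Cytb ran from 8354 through 9476 to 14810 CPM and from 11895 through 12675 to 24090 CPM, again with WT-Tg 4 as the overlap (0.53, SE 0.21, adjusted p = 0.12). mt-Nd4 had medians of 4336 and 5627 CPM (0.45, SE 0.19, adjusted p = 0.139). The 2 highest libraries of these genes, D316A-Tg 7 and WT-Tg 4, were also the highest of their groups in the mitochondrial total. Without D316A-Tg 7 the log2 fold changes were 0.24 for mt-Co1, 0.32 for mt-Cytb and 0.27 for mt-Nd4.

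mt-Nd1 and mt-Nd2 did not share this shift. mt-Nd1 ran from 6772 through 7213 to 9843 CPM in WT-Tg on HFD and from 5632 through 7598 to 13539 CPM in D316A-Tg (log2FC 0.09, SE 0.21, adjusted p = 0.777). mt-Nd2 ran from 5533 through 6149 to 8898 CPM and from 5091 through 6072 to 9987 CPM (-0.03, SE 0.19, adjusted p = 0.932). In both genes the WT-Tg range lay inside the D316A-Tg range. The rRNAs mt-Rnr1 (0.43, SE 0.35, adjusted p = 0.4) and mt-Rnr2 (0.47, SE 0.36, adjusted p = 0.386) were highest in D316A-Tg 7, at 1986 and 3282 CPM, against D316A-Tg medians of 544 and 883 CPM and WT-Tg medians of 586 and 928 CPM. Without that library their log2 fold changes were -0.10 and -0.11.

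None of the low genes with nuclear copies other than mt-Nd3 passed the test on HFD. The log2 fold changes were 0.46 for mt-Co2 (adjusted p = 0.166), 0.46 for mt-Atp8 (adjusted p = 0.114), 0.47 for mt-Atp6 (adjusted p = 0.123), 0.57 for mt-Co3 (adjusted p = 0.117) and 0.34 for mt-Nd4l (adjusted p = 0.338). Without D316A-Tg 7 they were 0.23 for mt-Co2, 0.39 for mt-Atp8, 0.29 for mt-Atp6, 0.33 for mt-Co3 and 0.20 for mt-Nd4l. mt-Nd6 had medians of 45.3 and 65.6 CPM (0.48, SE 0.21, adjusted p = 0.148). Among the 5 tRNAs tested, mt-Tl1 had the one fold change well below 0, with medians of 4.15 CPM (WT-Tg) and 1.95 CPM (D316A-Tg) (-0.62, SE 0.37, adjusted p = 0.264), and D316A-Tg 7 and 12 lay within the WT-Tg range. mt-Ti was at 0.94 (adjusted p = 0.198), mt-Tw at 0.16 (adjusted p = 0.646), mt-Tt at 0.03 (adjusted p = 0.952) and mt-Tm at -0.00 (SE 0.21, adjusted p = 0.997).

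**Figure D3:**
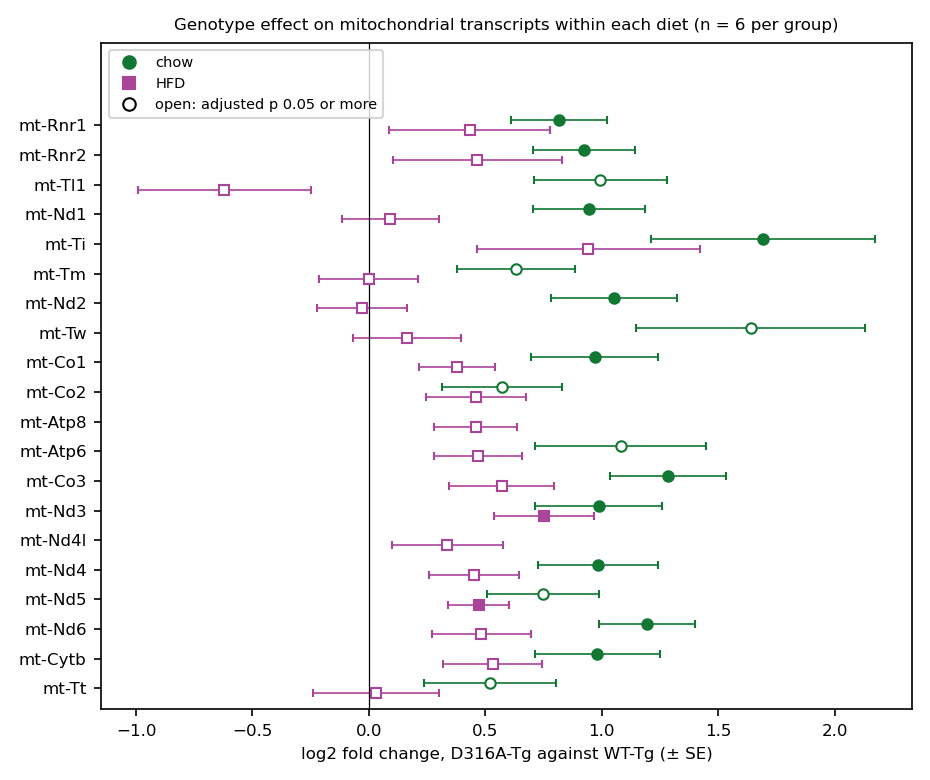
Log2 fold change of D316A-Tg against WT-Tg (± SE) for each mitochondrial gene tested, in genome order, on chow (circles) and HFD (squares), with 6 libraries per group. Filled symbols are the 11 genes called on chow and the 2 called on HFD. The chow values lie to the right of 0 throughout, and mt-Tl1 on HFD lies at -0.62.

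The difference of the genotype effect between diets was tested on the genes found in both tables. It was called in 2 of the 20 members tested, mt-Tl1 and mt-Nd2, against 12.9% of all 16072 genes. The effect on mt-Tl1 was lower on HFD than on chow by 1.61 on the log2 scale (HFD minus chow -1.61, SE 0.48, adjusted p = 0.0319), and the effect on mt-Nd2 differed by -1.07 (SE 0.33, adjusted p = 0.0372). All 20 differences were below 0, and they rest on the same libraries. mt-Nd1 missed the threshold at -0.84 (SE 0.31, adjusted p = 0.077), mt-Co1 was at -0.58 (SE 0.31, adjusted p = 0.189) and mt-Nd5 at -0.26 (SE 0.27, adjusted p = 0.498). Leaving out each library in turn gave 0 to 6 calls. Between 8.4% (without D316A-Tg HFD 11) and 26.5% (without D316A-Tg chow 8) of all genes were called in these fits. There were 0 without WT-Tg chow 3 or 4, WT-Tg HFD 5, or D316A-Tg HFD 8 or 11, and 6 without D316A-Tg HFD 7. There were 3 without WT-Tg chow 6 or D316A-Tg chow 8. Only 1 was made without WT-Tg chow 2, D316A-Tg chow 7 or 9, WT-Tg HFD 4, or D316A-Tg HFD 9 or 10. With the skeletal muscle score as a covariate 0 were called, among 1 gene called in all.

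The make-up of the mitochondrial counts was described by each gene's share of the mitochondrial total, in which a gain of 1 gene lowers the others. On chow mt-Co1, mt-Cytb and mt-Nd1 together held 74.1% of it, and on HFD 68.3%. mt-Co1 held 39.8% ± 2.33 in WT-Tg and 39.9% ± 2.39 in D316A-Tg (SD, n = 6), mt-Cytb 23.3% ± 0.83 and 23.8% ± 1.19, mt-Nd1 10.7% ± 0.52 and 10.7% ± 0.87, and mt-Nd4 9.89% ± 0.53 and 10.1% ± 1.03. mt-Nd2 held 6.29% ± 0.68 and 6.81% ± 0.43, mt-Nd5 7.82% ± 0.61 and 6.73% ± 0.61, mt-Rnr1 1.09% ± 0.19 and 1.00% ± 0.31, and mt-Rnr2 0.94% ± 0.16 and 0.94% ± 0.34. For each of these 8 genes the shares overlapped between genotypes, while the total differed by a ratio of 1.59. In a fit with the mitochondrial total as library size, 0 of 18 members were called in either direction and 0 had an unadjusted p below 0.05. Of all genes 72% were called. That total differed between genotypes, so genes outside it shift with the divisor. The shares of all genes, here and in the permutation test below, are thus no baseline for the members. The fit takes part of its scatter, and its adjustment, from all genes, so its 0 calls cannot decide whether the shares differed. The log2 fold changes ran close to 0 for mt-Co1 (0.00, SE 0.12), mt-Cytb (0.03, SE 0.12), mt-Nd1 (-0.01, SE 0.12) and mt-Nd4 (0.03, SE 0.13). In an exact two-sided permutation test of each share, 1 of 18 had an unadjusted p below 0.05, against 75% of all genes, and 0 of 18 separated without overlap, against 18.3%. That 1 was mt-Nd5 (exact p = 0.00866), whose WT-Tg libraries ran from 6.96% to 8.77% and whose D316A-Tg libraries ran from 5.99% to 7.48%. Its value in the fit was -0.22 (SE 0.13, adjusted p = 0.138).

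On HFD the shares differed between genotypes in mt-Nd1 and mt-Nd2, the protein genes that follow the rRNAs. mt-Nd1 held 13.9%, 12.9%, 13.1%, 13.1%, 14.98% and 13.6% in WT-Tg 1 to 6 and 12.3%, 12.6%, 12.1%, 10.3%, 9.41% and 11.0% in D316A-Tg 7 to 12. mt-Nd2 held 11.4%, 11.2%, 10.5%, 11.9%, 14.9% and 11.5% in WT-Tg and 9.06%, 9.28%, 9.22%, 9.09%, 8.50% and 10.2% in D316A-Tg. In both genes every D316A-Tg library was below every WT-Tg library, D316A-Tg 7 included. These were 2 of 20 members without overlap, against 4.64% of all genes, and the exact p of 0.00216 for each is the smallest that 6 against 6 allows. As on chow, shares of all genes move with the mitochondrial total and are no baseline here or in the tests that follow.

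mt-Cytb moved the other way, from 17.7% ± 1.09 to 20.1% ± 1.25 (exact p = 0.0108), with WT-Tg 4 at 19.8% inside the D316A-Tg range. mt-Nd4 held 8.07% ± 0.32 and 8.67% ± 0.55 (exact p = 0.0498), mt-Nd5 9.30% ± 0.35 and 10.4% ± 1.34 (exact p = 0.0714), and mt-Co1 36.6% ± 2.15 and 37.5% ± 2.20 (exact p = 0.45). With mt-Nd3 (exact p = 0.0281) and mt-Tl1 (exact p = 0.0411), 6 of 20 members had an unadjusted exact p below 0.05, against 38.1% of all genes. The edgeR fit on the mitochondrial total called 0 of 20, against 4.81% of all genes, and 2 had an unadjusted p below 0.05. It gave -0.27 for mt-Nd1 (SE 0.17, adjusted p = 0.253), -0.37 for mt-Nd2 (SE 0.17, adjusted p = 0.141) and 0.18 for mt-Cytb (SE 0.16, adjusted p = 0.433). The shares of mt-Nd1 and mt-Nd2 thus did not overlap between genotypes, while neither passed in the fit across all genes. That fit takes part of its scatter from all genes, so it cannot decide whether these shares differed.

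**Figure D4:**
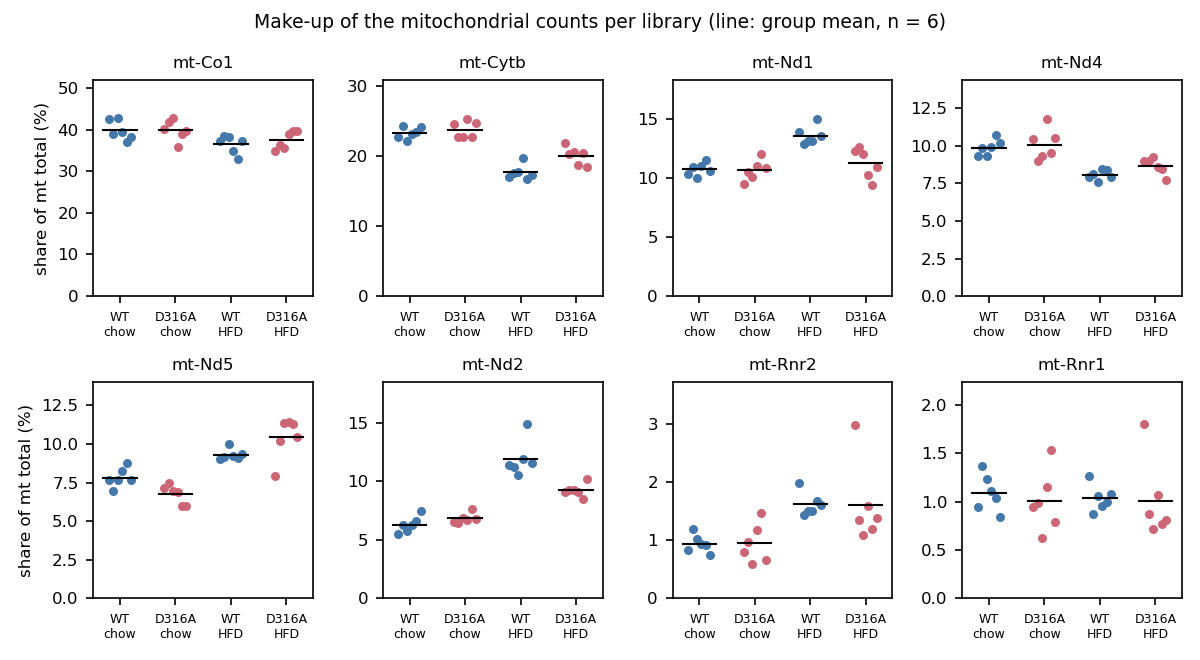
Share of the mitochondrial counts (percent, linear axes from 0) held by the 8 genes with the largest shares, with 1 point per library, 6 libraries per group and the group mean as a line. On HFD the D316A-Tg points of mt-Nd1 and mt-Nd2 lie below all WT-Tg points, and on chow the genotypes overlap in every panel.

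The rRNAs took 2.03% ± 0.35 of the mitochondrial counts in WT-Tg and 1.95% ± 0.65 in D316A-Tg on chow, and 2.66% ± 0.32 and 2.60% ± 1.10 on HFD (SD, n = 6). D316A-Tg HFD 7 was the highest library at 4.78%, where the rest of its group reached at most 2.66%. The 6 genes mt-Co2, mt-Atp8, mt-Atp6, mt-Co3, mt-Nd3 and mt-Nd4l summed to 0.012% of the mitochondrial counts on chow and 0.111% on HFD, and shares of the total were taken without correcting for their low counts. The HFD and chow tables differed in make-up in both genotypes, with mt-Cytb at 23.3% in WT-Tg on chow and 17.7% on HFD, and mt-Nd2 at 6.29% and 11.9%. These levels were not tested across the tables.

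The nuclear genes that transcribe, process and maintain mitochondrial RNA and DNA were followed in lists of textbook factors. Of 11 transcription factors of the mitochondrial genome, 5 were called higher on chow and 0 lower, against 5.3% and 3.25% of all genes, with a median log2 fold change of 0.28. Tfb2m, which helps the polymerase open the promoter, had 16.4 ± 2.50 CPM (WT-Tg) and 26.0 ± 4.11 CPM (D316A-Tg) (SD, n = 6; 0.66, adjusted p = 0.0225). Mterf4 (0.58, adjusted p = 0.0219) and Mterf3 (0.42, adjusted p = 0.0403), members of the family of mitochondrial termination factors, were also called. With each library left out in turn, Tfb2m lost its call in 5 of 12 fits, Mterf4 in 6 and Mterf3 in 9. Polrmt, the mitochondrial RNA polymerase, had 30.9 ± 3.38 and 30.2 ± 1.46 CPM (-0.04, adjusted p = 0.747), and Tfam, which packages the DNA and starts transcription, had 48.6 ± 7.28 and 49.1 ± 5.95 CPM (0.01, adjusted p = 0.963). On HFD 0 of the 11 were called, and 1 had an unadjusted p below 0.05. Tfb2m was at 0.27 (adjusted p = 0.0808), Tfam at 0.21 (adjusted p = 0.209), Tefm, the elongation factor, at -0.18 (adjusted p = 0.284) and Polrmt at -0.06 (adjusted p = 0.634).

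Of 12 factors of RNA stability, 5 were called higher on chow and 0 lower, against the same shares of all genes. Lrpprc, which binds and stabilises mitochondrial messenger RNA, went from 63.2 ± 5.89 to 96.3 ± 8.84 CPM (log2FC 0.60, SE 0.09, adjusted p = 0.00847). Supv3l1, the helicase of the RNA degradation complex (0.53, adjusted p = 0.0277), and Grsf1, a protein of the RNA granules (0.64, adjusted p = 0.0323), were called as well. Lrpprc lost its call in 0 of the 12 fits with a library left out, Supv3l1 in 7 and Grsf1 in 8. On HFD Lrpprc stood at 69.7 ± 6.68 and 69.8 ± 13.96 CPM (0.02, adjusted p = 0.929). Mtpap, the mitochondrial poly(A) polymerase, was the 1 member called there and was lower, at 47.1 ± 4.02 and 38.5 ± 1.39 CPM (-0.28, adjusted p = 0.0255), while Rexo2, an oligoribonuclease (-0.49, adjusted p = 0.052), and Pde12, which removes poly(A) (-0.18, adjusted p = 0.212), did not pass. Of 10 processing factors 1 was called on chow, near the 8.54% of all genes called in either direction. It was Ptcd3, a protein of the mitochondrial ribosome (0.53, adjusted p = 0.0213). Hsd17b10 and Prorp, subunits of the RNase P that cuts out tRNAs, were at 0.81 (adjusted p = 0.0675) and 0.51 (adjusted p = 0.094) on chow. On HFD Hsd17b10 was called, at 58.0 ± 4.59 and 82.2 ± 9.89 CPM (0.52, adjusted p = 0.0146), and Trmt10c, the third subunit, was at 0.21 (adjusted p = 0.328). Ptcd2, which acts on the mt-Cytb transcript, was at 0.15 (adjusted p = 0.329). The HFD calls were thus 1 of 12 stability factors and 1 of 10 processing factors, near the 8.47% of all genes called there. Leaving out 1 library ended the call of Ptcd3 in 5 of 12 fits, of Hsd17b10 in 0 and of Mtpap in 5.

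Of 12 RNA modification enzymes, 2 were called higher and 1 lower on chow, where 8.54% of all genes were called in either direction. Mto1 (0.51, adjusted p = 0.0368) and Gtpbp3 (-0.35, adjusted p = 0.0279), partners in modifying the wobble base of tRNAs, moved in opposite directions, and Nsun3, which methylates the methionine tRNA, was higher (0.48, adjusted p = 0.0448). Leaving out 1 library ended these calls in 8 of 12 fits for Mto1 and Gtpbp3 and in 9 for Nsun3. On HFD Trit1, which modifies tRNAs beside the anticodon, was called higher (0.56, adjusted p = 0.0438), a call lost in 10 of 12 such fits, with Gtpbp3 at -0.18 (adjusted p = 0.253) and Trmt5 at -0.17 (adjusted p = 0.278). That 1 of 12 was near the 8.47% of all genes called on HFD. Of 20 tRNA synthetases, 2 were called on chow, a share near that of all genes. Rars2 (0.40, adjusted p = 0.0403) and Nars2 (0.56, adjusted p = 0.0456) lost their calls in 8 and 9 of 12 such fits, and Yars2 was at 0.36 (adjusted p = 0.0579). On HFD 0 were called and 1 had an unadjusted p below 0.05, where Mars2 (0.32, adjusted p = 0.129), Iars2 (0.19, adjusted p = 0.197) and Pars2 (0.32, adjusted p = 0.214) had the lowest adjusted p-values.

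Of 15 genes of mitochondrial DNA replication and nucleotide supply, 0 were called on chow, where 5 had an unadjusted p below 0.05, and 3 on HFD, all higher, against 4.51% of all genes called higher there. On chow the median log2 fold change was -0.14, with Polg, the DNA polymerase, at -0.17 (adjusted p = 0.273) and Twnk, the helicase, at 0.17 (adjusted p = 0.279). Atad3a (0.40, adjusted p = 0.0743), Rrm2b (0.30, adjusted p = 0.0896) and Mpv17 (0.56, adjusted p = 0.118) were nearest to the threshold. On HFD Rrm2b, a ribonucleotide reductase subunit, went from 30.2 ± 2.94 to 43.5 ± 4.94 CPM (0.55, SE 0.09, adjusted p = 0.0145), Polg from 53.0 ± 2.53 to 62.7 ± 3.17 CPM (0.26, adjusted p = 0.0222) and Polg2, its accessory subunit, from 3.56 ± 0.59 to 5.96 ± 1.66 CPM (0.76, adjusted p = 0.0494), and Twnk missed the threshold (0.44, adjusted p = 0.0544). Leaving out 1 library ended the call of Polg2 in 10 of 12 fits, of Polg in 1 and of Rrm2b in 0. Other annotated genes overlap 35.2% of the exon length of Mterf4, 24.2% of Iars2 and 22.1% of Mtpap, so their counts are uncertain where strand was not used.

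Most nuclear-encoded partners of the mitochondrial subunits were also called higher on chow. Of 36 nuclear complex I subunits 26 were called higher and 0 lower, against 5.3% and 3.25% of all genes, with a median log2 fold change of 0.88, against 0.98 for the tested mitochondrial genes. Ndufs5 had the lowest adjusted p of them, at 16.2 ± 4.94 CPM (WT-Tg) and 46.5 ± 12.9 CPM (D316A-Tg) (1.51, adjusted p = 0.0105). For complex III 9 of 9 were called higher (median 0.99; Uqcrb 1.00, adjusted p = 0.0208), for complex IV 11 of 14 (median 0.95; Cox7b 1.18, adjusted p = 0.0136) and for ATP synthase 10 of 15 (median 0.74; Atp5j2 1.02, adjusted p = 0.0244). These 56 calls among 74 nuclear subunits were not recounted in other fits. Of all genes, 808 were called higher in the main fit, 78 without D316A-Tg 7, 77 without D316A-Tg 12 and 1998 without D316A-Tg 8. With the skeletal muscle score 41 were, so not all 56 held there. With 1 library left out, Atp5j2 lost its call in 8 of 12 fits, Uqcrb in 5 and Ndufs5 and Cox7b in 0. On HFD the nuclear medians were 0.16, 0.15, 0.15 and 0.13, and the only call among the 74 was Cox6a2, the heart and skeletal muscle form of a complex IV subunit (0.78 ± 0.49 and 8.99 ± 12.3 CPM; 3.54, adjusted p = 0.0293), whose call was lost in 4 of 12 such fits and whose value turned to -0.87 with the skeletal muscle score. Ndufb3 (-0.30, adjusted p = 0.103), Uqcr11 (0.23, adjusted p = 0.23) and Atp5g2 (0.20, adjusted p = 0.223) had the lowest adjusted p-values of the other complexes. Of the mitochondrially encoded subunits, 8 of 11 tested were called higher on chow and 2 of 13 on HFD, against 5.3% and 4.51% of all genes. The 2 HFD calls, mt-Nd3 and mt-Nd5, were lost in 11 and 10 of 12 fits with 1 library left out.

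Markers of several cell types differed between genotypes, some higher and some lower, and their part in these results was not tested. The brown and beige list and the nuclear complex IV list share Cox8b and Cox7a1, so these lists are not independent. On chow the 8 brown and beige markers, Ucp1 and Cidea among them, summed to between 123 and 838 CPM in WT-Tg and between 852 and 1756 CPM in D316A-Tg, so the groups did not overlap in this sum, and 0 of the 8 were at 0 in any library. In their mean log2 CPM the groups did overlap, with WT-Tg up to 5.62 and D316A-Tg from 5.35. Of these markers 3 were called higher on chow and 0 on HFD, where the sums ran from 162 to 668 CPM (WT-Tg) and from 101 to 1815 CPM in D316A-Tg. The mature adipocyte markers summed to between 22740 and 60864 CPM in WT-Tg and between 30077 and 91184 CPM in D316A-Tg on chow, and 0 of 12 were called there (4 at an unadjusted p below 0.05), while 2 of 12 were called higher on HFD. The skeletal muscle markers were called higher in 16 of 16 tested on HFD and in 0 of 16 on chow, where 10 had an unadjusted p below 0.05 and their median log2 fold change was -3.37. Macrophage markers were called lower in 2 of 8 on HFD (median log2 fold change -1.18) and in 0 of 8 on chow (-0.89), with 7 and 6 at an unadjusted p below 0.05. Endothelial markers were called lower in 3 of 6 on HFD (-0.62) and in 1 of 6 on chow (-0.57). B and T lymphocyte markers were called in 0 of 10 and 0 of 8 on either diet, with at most 1 of each list at an unadjusted p below 0.05, and had medians of -1.61 and -1.13 on chow and 1.84 and 1.92 on HFD.

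**Figure D5:**
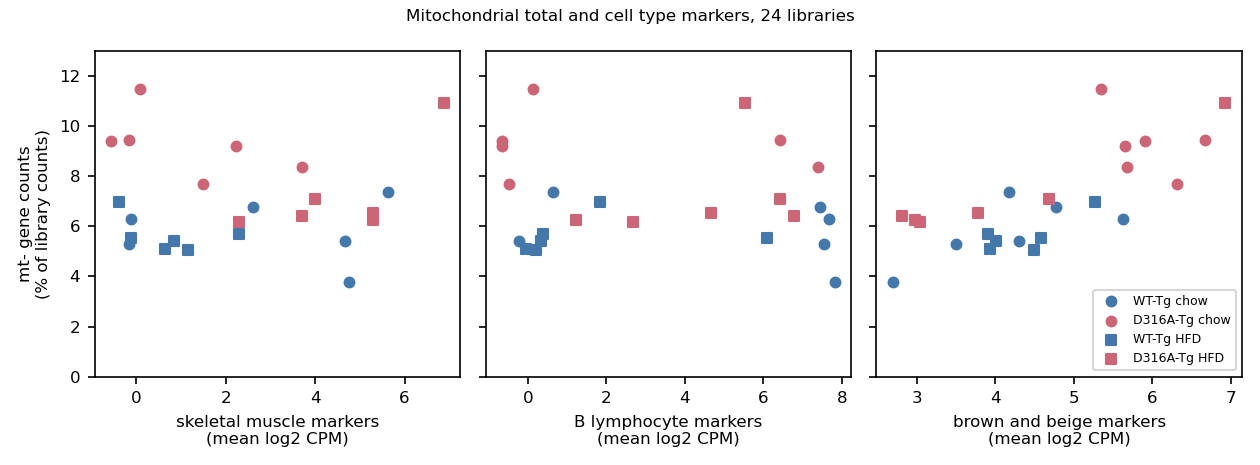
Share of library counts on mitochondrial genes (percent) against the mean log2 CPM of skeletal muscle, B lymphocyte and brown and beige markers, with 1 point per library (24 libraries, circles chow, squares HFD). D316A-Tg HFD 7 lies at the upper right of the muscle and the brown and beige panels. The D316A-Tg chow libraries all lie above the WT-Tg chow libraries, so their order at any B lymphocyte score was fixed.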

How the data were processed

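The authors deposited raw counts per gene in 2 tables, 1 per diet, with 12 libraries each. Per the labels' protocols, libraries of inguinal fat without its lymph node were made with a TruSeq stranded mRNA kit. The submitters' processing notes name STAR 2.4.1, FastQC, DESeq2 and the mm10 build, and the labels give bcl2fastq 2.20.0.422 (chow) and bclfastq 2.16.0.10 (HFD) for base calls. Not given in the sources used here are the counting tool, the annotation and whether strand was used.

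Within each table, genes kept by filterByExpr were tested with the quasi-likelihood test of edgeR 4.0.16 (R 4.3.3, TMM scaling, robust), adjusted by Benjamini-Hochberg over all genes, with calls at 0.05. SE is the log2 fold change divided by the root of F. CPM are TMM-scaled, and log2 CPM had a prior count of 2. Diets were compared on the 38013 shared identifiers. Shares were tested with the mitochondrial total as library size and by exact permutation. Alternatives were other scalings and filters, DESeq2 1.42.0, voom of limma 3.58.1, marker scores as covariates and leaving out libraries. The edgeR step was tested on simulated data. Mitochondrial transcripts were aligned with blastn to GENCODE M21 nuclear transcripts. Unannotated nuclear sequence was not searched.

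All members are accounted for. Named are all protein and rRNA genes, tRNAs called or among the 3 highest, in each machinery list the 3 genes with the lowest adjusted p per diet plus Polrmt, Tfam, Lrpprc, Twnk and Polg, and in each nuclear complex the lowest. Members and lists were chosen with earlier results of these data known.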

Additional observations from a re-analysis of the deposited data

Results flagged for a closer look

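Groups of 6 were searched for a library whose gap to its nearest neighbour was above Dixon's 95% critical share of the group's range, for the mitochondrial total and each tested rRNA and protein gene. Of 60 such groups 12 had one, where chance gives about 1 in 20, and all 12 were on HFD and concerned D316A-Tg 7 (7 of them) or WT-Tg 4. The genes share these libraries and are not independent. D316A-Tg HFD 7 was highest in the mitochondrial total (10.9%, next 7.08%) and in log2 CPM of mt-Co1 (15.23), mt-Cytb (14.56), mt-Nd4 (13.28), mt-Rnr1 (10.96), mt-Rnr2 (11.68) and mt-Co2 (5.41). WT-Tg HFD 4 was highest in the mitochondrial total (6.96%, next 5.69%) and in log2 CPM of mt-Co1 (14.67), mt-Cytb (13.85), mt-Atp6 (4.53) and mt-Co3 (4.50).

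The D316A effect differed between diets for mt-Tl1 (HFD minus chow -1.61 on the log2 scale) and mt-Nd2 (-1.07), by the test of the difference itself. These were 2 of 20 members, against 12.9% of all genes, and mt-Tl1 lost the call in 5 and mt-Nd2 in 13 of 24 fits with 1 library left out. Neither was called with the skeletal muscle score as a covariate.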

How the results depend on the processing

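The number of mitochondrial genes called on chow, 11, was 7 with library totals as the only scaling, 2 without a filter (of 31 tested), 0 with the skeletal muscle score as covariate and 5 without the libraries rich in B lymphocyte markers, and rose to 15 with DESeq2, 16 with voom, 15 in a single fit of all 24 libraries and 14 with the B lymphocyte score. On HFD the number, 2, became 4 with DESeq2 and 6 with limma's voom, where 19.1% and 29.7% of all genes were called, and 0 without a filter, with all 24 libraries in a single fit, with either score as covariate and without the B lymphocyte-rich libraries. Relative to the mitochondrial total edgeR called 0 on each diet at the adjusted threshold, in a fit that takes part of its scatter from all genes. An exact test of each share, added after seeing the data and read at an unadjusted p below 0.05, gave 1 on chow and 6 on HFD, where 75% and 38.1% of all genes passed it. Those shares of all genes move with the mitochondrial total and are no baseline. The difference between diets, 2, was 1 without a filter and 0 with the muscle score. Leaving out 1 library at a time gave 1 to 14 calls on chow, 0 to 3 on HFD, 0 to 1 relative to the mitochondrial total on either diet and 0 to 6 for the difference, and moved the difference in mitochondrial total between 3.00 and 3.76 points on chow and 0.86 and 1.87 on HFD. Of all genes, 0.901% to 21.9% were called in these fits on chow, 2.19% to 26.3% on HFD and 8.4% to 26.5% for the difference. The cause of these shifts was not tested.

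Directions reversed as follows, as log2 fold changes. On chow, Tfam was at -0.27 with library totals, -0.0122 with a mean count of at least 50, -0.16 with voom and -0.0391 with the muscle score, Twnk at -0.13 with library totals, Polrmt at 0.00915 with the B lymphocyte score and 0.15 without the B lymphocyte-rich libraries, and Polg at 0.0494 in the latter. Relative to the mitochondrial total, mt-Nd1 was at 0.0138 with the muscle score and mt-Nd2 at -0.0669 without the B lymphocyte-rich libraries. On HFD mt-Tm, near 0 throughout, was at 0.00577 with RLE scaling, 0.0249 with upper-quartile scaling, 0.0205 with library totals, 0.0111 with a mean count of at least 50, 0.0084 with DESeq2, 0.0152 in the single fit, 0.0285 with the B lymphocyte score and 0.15 with the muscle score. Voom gave -0.0491 for mt-Tw and -0.0887 for mt-Tt. The muscle score nearly followed genotype on HFD, so a fit with it can hardly estimate a genotype effect there. The muscle score gave -0.89 for mt-Rnr1, -0.87 for mt-Rnr2, -0.48 for mt-Nd1, -0.35 for mt-Ti, -0.16 for mt-Co2, -0.18 for mt-Nd3, -0.16 for mt-Nd4l, -0.078 for mt-Nd4, -0.67 for mt-Tt, -0.21 for Lrpprc, -0.00865 for Uqcr11 and -0.87 for Cox6a2, and turned the difference between diets of mt-Nd4l to 0.24. The B lymphocyte score gave -0.0919 for mt-Tt, -0.000115 for Tfam, -0.0819 for Trmt10c, -0.0151 for Ptcd2, -0.098 for Lrpprc and -0.00165 for Pars2. Without the B lymphocyte-rich libraries mt-Nd1 was at -0.20, mt-Nd4l at -0.0484, Tfam at -0.0157, Trmt10c at -0.18, Ptcd2 at -0.11, Lrpprc at -0.19 and Atp5g2 at -0.0273.

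With 1 library left out, Polrmt ran from -0.085 to 0.00467, Tfam from -0.0438 to 0.0567 and mt-Nd1 relative to the mitochondrial total from -0.0438 to 0.0255 on chow. On HFD mt-Rnr1 ran from -0.10 to 0.56, mt-Rnr2 from -0.11 to 0.60, mt-Nd1 from -0.11 to 0.19, mt-Nd2 from -0.19 to 0.0545, mt-Tm from -0.0851 to 0.0957, mt-Tw from -0.00392 to 0.27, mt-Tt from -0.23 to 0.18 and Lrpprc from -0.0957 to 0.0673.

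Replicate numbers are shared between diets within a genotype. Over 12 numbers the deviations of same-numbered libraries correlated between -0.37 and 0.61, and 4 correlated best with their own number. These values do not settle whether the numbers pair the samples, and the main fit did not pair them. With the replicate block the difference between diets was called in 2 members and 16.6% of all genes. The 6 low protein genes had mean counts of 1 to 82.1 per library on chow, which limits their precision.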
